A study of Mus musculus with 80 samples.

Results

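Acat1, Bdh1, Bdh2, Slc16a1 and Slc16a6 are 5 genes of ketone body synthesis and export, and they were followed in mouse liver over a circadian time course with and without food. They were taken by their symbols from the deposited gene count table and make up 5 of its 78275 rows, and all 5 passed the filter on low counts. The livers came from male and female C57BL/6J mice of 8 to 12 weeks, an inbred wild-type strain with no transgene or induced mutation, fed standard chow. All mice spent 10 days in a cycle of 12 h light and 12 h dark and entered constant darkness on day 11. Control mice kept their food, and fasted mice lost theirs at circadian time (CT) 10. Sampling began at CT8 and was repeated at intervals of 4 h until CT44. CT8 lies before food removal, and CT12 to CT44 lie 2 to 34 h after it. Each treatment and time has 2 male and 2 female libraries, 1 for each mouse, which gives 80 libraries in all.

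The liver is the main source of ketone bodies, the water-soluble fuels that it makes from fatty acids when carbohydrate is short. In liver mitochondria, acetyl-CoA units are joined, passed through HMG-CoA and cleaved to acetoacetate, which is then partly reduced to β-hydroxybutyrate. Both products leave the hepatocyte through carriers of the plasma membrane and are burned in the brain, heart and muscle, while the liver itself lacks the enzyme that would reactivate them. The mitochondrial thiolase Acat1 joins and splits acetoacetyl-CoA, and Bdh1 interconverts acetoacetate and β-hydroxybutyrate in mitochondria. Bdh2 encodes a second, cytosolic β-hydroxybutyrate dehydrogenase, also linked to the making of a mammalian siderophore. Slc16a1 encodes MCT1, a proton-coupled carrier of lactate, pyruvate and ketone bodies, and Slc16a6 encodes MCT7, a carrier linked to the export of β-hydroxybutyrate from liver cells.

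Promoters in the RefSeq table used here (build GRCm38.p6) matched 3 of the 5 genes, Slc16a1, Bdh2 and Bdh1, the last with a pair of start sites. The 250 bases before the start are shown for Slc16a1, the member with the strongest daily rhythm in fasted livers, and for Bdh2, the member that fell most. Capitals mark a CACGTG E-box, the element bound by CLOCK and BMAL1 and by other factors of their class.
Slc16a1, chr3:104638414-104638663, plus strand: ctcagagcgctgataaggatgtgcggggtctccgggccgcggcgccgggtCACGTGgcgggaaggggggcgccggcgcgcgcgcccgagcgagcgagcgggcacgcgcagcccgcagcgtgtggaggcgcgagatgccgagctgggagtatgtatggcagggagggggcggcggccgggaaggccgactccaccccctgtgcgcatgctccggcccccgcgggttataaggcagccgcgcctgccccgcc
Bdh2, chr3:135280971-135281220, plus strand: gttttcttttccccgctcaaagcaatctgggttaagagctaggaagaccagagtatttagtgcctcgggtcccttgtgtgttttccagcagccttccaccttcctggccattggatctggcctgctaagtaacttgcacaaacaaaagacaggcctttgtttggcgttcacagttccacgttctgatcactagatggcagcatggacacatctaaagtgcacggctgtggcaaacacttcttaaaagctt

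In Slc16a1 the E-box began 200 bases before the start. It was the single match in the 4 promoters of the 3 genes among the motifs searched on both strands. These were the E-box, the D-box TTATGTAA, the element AGGTCA of ROR and REV-ERB, the cAMP response element TGACGTCA and the PPAR direct repeat, which holds that element 2 times with 1 base between. Of 32851 promoter windows of the same length, 6.02% held the E-box, 0.819% the D-box, 14.0% the element AGGTCA, 1.55% the cAMP response element and 0.0335% the direct repeat. These matches describe the letters of the windows and were not set against binding.

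The libraries held 25534901 to 59927771 gene counts, with a median of 42303883. The sex in the title differs from that in the other labels in 40 libraries, out of 80, and the treatment does in 40 as well. The titles, with which the column names of the count table pair, were followed. The treatment was not checked against the data apart from the results, while Ddx3y and Xist, a Y-linked and a female-specific gene, matched the titled sex in 80 of 80 libraries. 2 libraries stood apart most, and fasted CT44 female 1 came next. Control CT8 female 2 had 31.3% of its counts on Rn18s-rs5, a ribosomal RNA gene, against at most 4.88% elsewhere. In fasted CT40 female 2, 26.4% of the genes tested lay more than 1 log2 unit from the mean of the other 3 libraries of its group, the highest share of the 80, where the median library had 9.29%. The next highest shares were 19.8% in control CT8 female 2 and 17.3% in fasted CT44 female 1. Hepatocyte markers were high throughout, with a summed level of 58453 to 113292 CPM (read counts scaled to a common library total) in control and 73178 to 132090 CPM in fasted libraries over 5 genes, of which 4 rose and 1 fell. All 5 Kupffer cell markers fell, from a median sum of 284 to 212 CPM, and 4 of 5 cholangiocyte markers fell, from 39.0 to 23.7 CPM. Of the endothelial list 2 of 5 rose and 2 fell, of the stellate list 1 rose and 3 fell, of the leukocyte list 3 of 5 fell and of the red cell list 2 of 5 fell. Over all genes tested, 29.5% were called with a rise and 32.9% with a fall by the test given below, and the marker counts are to be read against these shares. No marker of these lists was at 0, and their part in the results below was not tested. In whole liver, fewer cells of a type and less RNA per cell cannot be told apart.

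Per kilobase of exon, Acat1 had the highest level of the 5 in control livers from CT12 to CT44, at 91.7 ± 16.3 CPM per kilobase (SD, n = 36). It was followed by Bdh1 at 46.8 ± 12.8 and Slc16a1 at 13.2 ± 4.38 CPM per kilobase, with Slc16a6 at 2.64 ± 0.918 and Bdh2 at 2.61 ± 0.568 CPM per kilobase. The last pair differed by less than the spread between libraries, and each other step in the order was larger than the SD of either gene. In fasted livers the levels were 134.6 ± 30.7 CPM per kilobase for Acat1, 53.4 ± 18.1 for Bdh1, 17.8 ± 8.10 for Slc16a1, 1.83 ± 1.00 for Slc16a6 and 1.29 ± 0.849 for Bdh2. Exon lengths came from the GENCODE M21 annotation of GRCm38, an older build than the GRCm39 of the counts.

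The first question is which steps of the pathway changed when food was withheld. Over CT12 to CT44, Acat1 and Slc16a1 rose, Bdh2 and Slc16a6 fell, and Bdh1 did not pass the test. The test was edgeR's quasi-likelihood test with Benjamini-Hochberg adjustment over 21187 genes, and a gene was called at an adjusted p under 0.05. A fasting effect is the log2 of fasted over control, averaged over the 9 times and both sexes with equal weight. With this test 62.5% of all genes tested were called, 29.5% with a rise and 32.9% with a fall, and the 4 of 5 called here are to be read against that share. The median effect of all genes tested was -0.02.

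**Figure D1:**
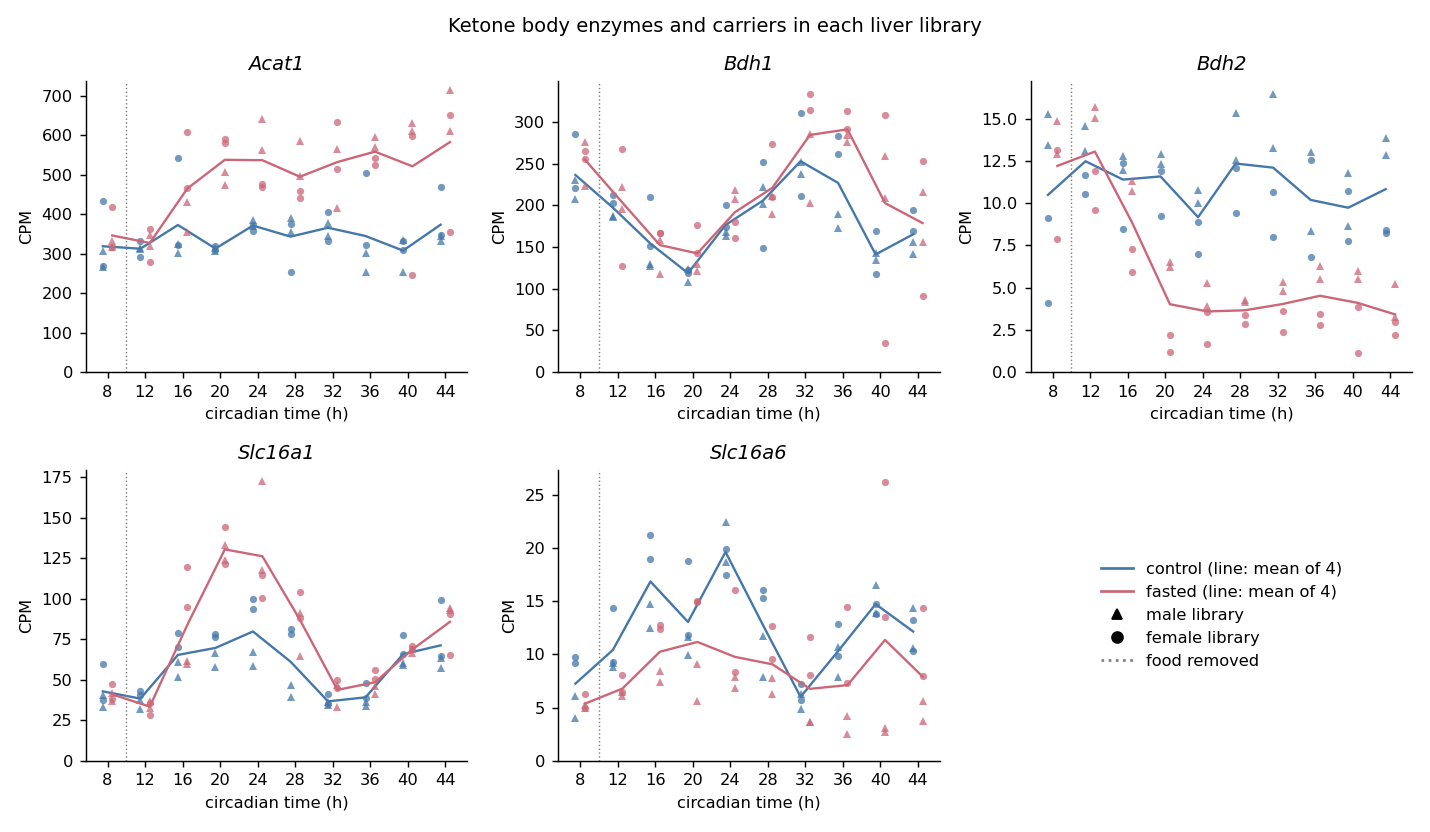
Level of each of the 5 genes in every library, in CPM, against circadian time in hours. Points are single libraries (triangles male, circles female), lines join the means of 4 libraries, and the dotted line marks food removal at CT10. The fasted line of Bdh2 falls below 5 CPM from CT20 on while the control line stays above 9 CPM, and the groups of Bdh1 overlap at every time from CT12 on.

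The thiolase gene Acat1 rose. Its control libraries ranged from 253 to 541 CPM with a median of 332 CPM over CT12 to CT44 (n = 36), and its fasted libraries from 246 to 713 CPM with a median of 519 CPM (n = 36). The fasting effect was 0.54 (SE 0.061, 95% interval 0.41 to 0.66, edgeR adjusted p = 1.76e-10), a rise of 1.45-fold. At CT12, 2 h after food removal, the control libraries held 291 to 333 CPM and the fasted ones 279 to 362 CPM, and the groups overlapped. At CT20 the 4 control libraries held 307, 313, 310 and 320 CPM, and the 4 fasted ones 473, 506, 581 and 589 CPM. There every fasted library lay above every control library. The same held at 5 of the 9 times, CT20 to CT36. Over all genes and times, the 4 fasted and 4 control libraries did not overlap in 21.1% of the comparisons. The effect was called at 7 of 9 times, from CT20 to CT44, with values between 0.52 and 0.78, and it was above 0 at all 9. With males 1 left out none of these 7 times was called (0.39 to 0.78, edgeR adjusted p = 0.0555 to 0.49), and with males 2 left out CT40 alone was. Without females 2 the effect at CT44 was 0.28 (edgeR adjusted p = 0.0733). With no sex in the model, CT24, CT28 and CT32 lost their calls (edgeR adjusted p = 0.0504 to 0.0633), and from the 8 libraries of CT40 alone so did that time (edgeR adjusted p = 0.0713). At CT40 the fasted libraries held 609, 631 and 598 CPM, but 246 CPM in female 2, the library that stood apart, which was below every control library of that time. Without it the effect at CT40 was 1.00 and the mean effect 0.57.

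Bdh1, the mitochondrial dehydrogenase, did not pass the test over all libraries. Its control libraries ranged from 108 to 311 CPM with a median of 173 CPM, and its fasted libraries from 34.7 to 334 CPM with a median of 208 CPM. The fasting effect was 0.19 (SE 0.096, 95% interval -0.01 to 0.38, edgeR adjusted p = 0.087). The interval leaves room for a rise of the size seen in Slc16a1. No single time was called, and the groups of 4 overlapped at all 9 times. The lowest fasted value, 34.7 CPM, was again fasted CT40 female 2, where the other 3 fasted libraries held 209, 259 and 308 CPM. Without that library the mean effect was 0.24 and passed the test (edgeR adjusted p = 0.00161), and the effect at CT40 was 0.94 (edgeR adjusted p = 0.000485). Without fasted CT44 female 1, at 90.8 CPM the lowest of its group, the mean effect was 0.22 (edgeR adjusted p = 0.0355).

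Bdh2, the cytosolic relative, had the largest change of the 5. Control libraries ranged from 6.83 to 16.5 CPM with a median of 11.8 CPM, and fasted libraries from 1.10 to 15.7 CPM with a median of 4.52 CPM. The fasting effect was -1.24 (SE 0.082, 95% interval -1.41 to -1.08, edgeR adjusted p = 7.68e-18), which leaves 0.42 of the control level. At CT12 the 4 fasted libraries still held 9.61 to 15.7 CPM against 10.6 to 14.6 CPM in controls, and at CT16 they held 5.95 to 11.3 CPM against 8.50 to 12.8 CPM. Neither time was called. At CT20, 10 h after food removal, the control libraries held 12.9, 12.3, 11.9 and 9.22 CPM and the fasted ones 6.49, 6.22, 1.16 and 2.21 CPM. From there to CT44 every fasted library lay below every control library, at 7 of 9 times, and the effect was called at each of them with values between -1.82 and -1.24. Without males 2 the effect at CT36 was -1.02 and not called (edgeR adjusted p = 0.0787). Its mean effect at CT36 to CT44 was lower than at CT12 to CT20 by 0.69 (SE 0.20, edgeR adjusted p = 0.0097). The early mean holds CT12 (0.05) and CT16 (-0.41), before most of the fall, beside CT20 (-1.82), the lowest of the 9 times. The late effects were -1.24, -1.35 and -1.67, so the difference does not show a fall that deepened after CT20. Bdh2 was the only one of the 5 genes called for this difference between late and early times, for which 21.2% of all genes were called. Without fasted CT40 female 2, Acat1 was called too, with an effect higher at the late times by 0.40 (edgeR adjusted p = 0.0275). With males 1 or males 2 left out at every time, the difference of Bdh2 was -0.86 and -0.53 and did not pass the test (edgeR adjusted p = 0.0796 and 0.35). Counts behind the fasted values were small, 30 to 600 reads a library.

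The carrier gene Slc16a1 rose for part of the fast. Control libraries ranged from 32.2 to 99.5 CPM with a median of 58.9 CPM, and fasted libraries from 28.3 to 172 CPM with a median of 69.0 CPM. The fasting effect was 0.35 (SE 0.045, 95% interval 0.26 to 0.45, edgeR adjusted p = 3.00e-09), a rise of 1.28-fold. At CT20 the control libraries held 66.4, 57.8, 78.0 and 76.2 CPM and the fasted ones 124, 133, 121 and 144 CPM. The groups did not overlap at CT20 and CT24, 2 of 9 times, which is near the share of 21.1% over all genes and times. The effect was 0.91 (SE 0.14) at CT20, 0.68 (SE 0.14) at CT24 and 0.57 (SE 0.14) at CT28, and these 3 times were called. CT28 lost its call without males 1 (0.37, edgeR adjusted p = 0.23) and with no sex in the model (0.51, edgeR adjusted p = 0.0717). At the other 6 times it ranged from -0.19 to 0.32 and did not pass the test. At CT40 the 2 groups were close, with 59.4 to 77.7 CPM in controls and 66.3 to 70.6 CPM in fasted livers.

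Slc16a6, the second carrier gene, fell. Control libraries ranged from 4.88 to 22.5 CPM with a median of 12.7 CPM, and fasted libraries from 2.50 to 26.2 CPM with a median of 7.94 CPM. The fasting effect was -0.63 (SE 0.074, 95% interval -0.78 to -0.48, edgeR adjusted p = 4.41e-10), or 0.65 of the control level. It was called at 5 of 9 times, CT16, CT24, CT36, CT40 and CT44, with values between -1.05 and -0.73. With no sex in the model none of these times was called (-1.01 to -0.38, edgeR adjusted p = 0.0848 to 0.52). CT16 lost its call without males 1 or males 2 (edgeR adjusted p = 0.13 and 0.11), and without males 1 so did CT36 (-0.50, edgeR adjusted p = 0.31) and CT44 (-0.52, edgeR adjusted p = 0.21). From the 8 libraries of CT36 alone that time was not called (edgeR adjusted p = 0.0572). The groups did not overlap at CT12 and CT24, 2 of 9 times, again near the 21.1% over all genes and times. At CT32, the low point of the control rhythm, the effect was 0.01 (SE 0.23), with 4.88 to 7.20 CPM in controls and 3.68 to 11.6 CPM in fasted livers. In the GENCODE M21 annotation of GRCm38, Slc16a6 overlaps Amz2 and Arsg on the opposite strand. The libraries were strand-specific, but whether the counting used the strand is not given in the sources used here, so part of the reads could belong to a neighbour. Amz2 fell by 0.22 (SE 0.030, edgeR adjusted p = 8.82e-09) and Arsg rose by 0.84 (SE 0.070, edgeR adjusted p = 1.69e-14) on the log2 scale.

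**Figure D2:**
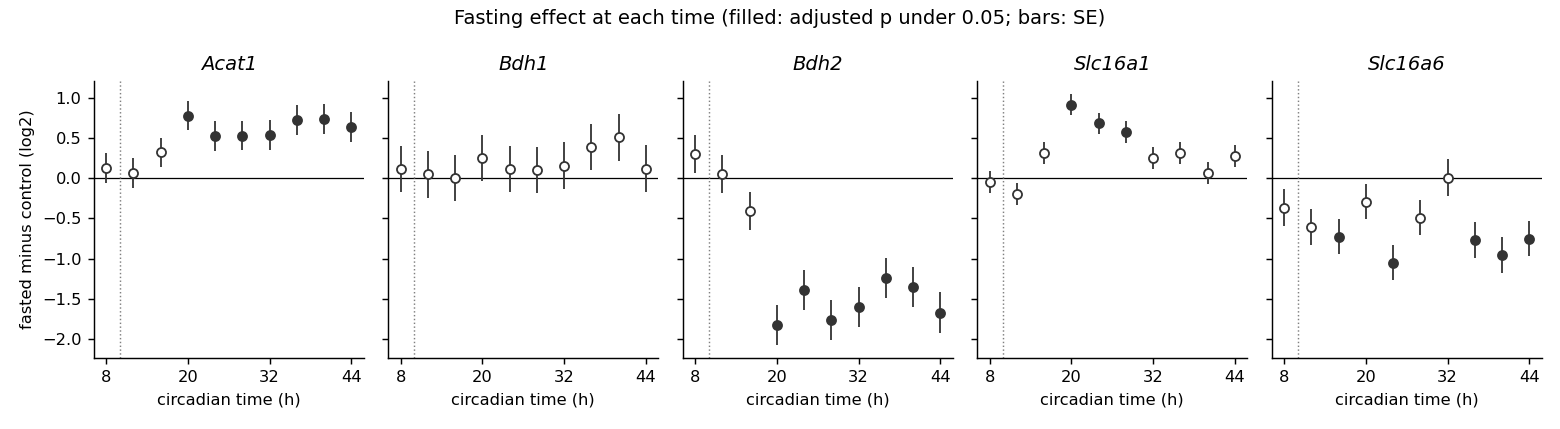
Fasting effect of each gene at each time, in log2 units of fasted minus control (vertical axis), against circadian time in hours. Points are the edgeR estimates from 4 fasted and 4 control libraries, bars are SE, and filled points had an adjusted p under 0.05. Acat1 is filled from CT20 to CT44 above 0, Bdh2 over the same times below 0, Slc16a1 from CT20 to CT28, and Bdh1 nowhere.

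Before food removal, at CT8, none of the 5 genes was called by edgeR, with unadjusted p of 0.11 to 0.70, where 1.33% of all genes were. The largest differences there were -0.37 (SE 0.23) for Slc16a6 and 0.29 (SE 0.24) for Bdh2, so equal levels before the fast are not shown. For Slc16a6 at CT8, control females held 9.21 and 9.74 CPM and females of the fasted group 6.29 and 4.99 CPM. The males held 4.00 and 6.08 CPM in controls and 5.22 and 4.96 CPM in the fasted group. Shares of all genes called rose from 1.60% at CT12 to 23.4% at CT16 and 36.6% at CT20, and were 24.1% at CT24, 21.0% at CT28, 17.7% at CT32, 26.8% at CT36, 39.9% at CT40 and 39.4% at CT44. The first of the 5 genes to be called was Slc16a6 at CT16, and Acat1, Bdh2 and Slc16a1 were first called at CT20. This is an order of calls and does not show which gene responded first. Slc16a6 had -0.61 (SE 0.22) at CT12, not called, after the -0.37 before food removal, and its call at CT16 was lost under alternatives given above.

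The second question is whether males and females differed. The fasting effect of Slc16a6 did: it was -1.08 in males (SE 0.11, edgeR adjusted p = 1.14e-11) and -0.18 in females (SE 0.10, edgeR adjusted p = 0.14). The difference, females minus males, was 0.90 (SE 0.15, edgeR adjusted p = 6.02e-05), and 12.4% of all genes were called for it. In males, control libraries held 4.88 to 22.5 CPM with a median of 11.1 CPM and fasted ones 2.50 to 9.09 CPM with a median of 5.88 CPM (n = 18 each). In females, control libraries held 5.71 to 21.2 CPM with a median of 14.1 CPM and fasted ones 6.47 to 26.2 CPM with a median of 12.5 CPM (n = 18 each). The widest gap was at CT40, where the fasted males held 2.70 and 3.07 CPM and the fasted females 13.5 and 26.2 CPM, against 13.9 and 16.5 CPM in control males and 13.8 and 14.7 CPM in control females. The value of 26.2 CPM was that of female 2, which stood apart, and without it the difference was 0.84 (edgeR adjusted p = 8.83e-05). Without CT40 altogether it was 0.65, and with every male numbered 1 left out, 0.77, it no longer passed the test (edgeR adjusted p = 0.0553). Both fasted females lay above both fasted males at 8 of 9 times, and both control females above both control males at 4 of 9. Fasted females and males did not overlap in 47.0% of the gene and time pairs of all genes tested. For control livers this share was not computed. The overlapping genes Amz2 and Arsg were not called for this difference, with -0.13 (edgeR adjusted p = 0.15) and 0.29 (edgeR adjusted p = 0.17).

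Bdh2 fell further in females, where the effect was -1.51 (SE 0.12), than in males, where it was -0.98 (SE 0.11). The difference was -0.53 (SE 0.16, edgeR adjusted p = 0.026). Fasted females held 1.10 to 11.9 CPM with a median of 3.16 CPM, and fasted males 3.28 to 15.7 CPM with a median of 5.50 CPM. Control medians were 9.32 CPM in females and 12.8 CPM in males. Both fasted males lay above both fasted females at all 9 times, where 47.0% of the gene and time pairs of all genes did not overlap. Both control males lay above both control females at 6 of 9 times, for which no share over all genes was computed. The difference no longer passed the test without CT20 (-0.38, edgeR adjusted p = 0.15), CT36 (-0.50, edgeR adjusted p = 0.056) or CT40 (-0.47, edgeR adjusted p = 0.0946), nor with either male number left out (-0.43, edgeR adjusted p = 0.43, and -0.61, edgeR adjusted p = 0.20). Slc16a1 rose by 0.50 in males (SE 0.064) and by 0.21 in females (SE 0.064), a difference of -0.30 (SE 0.090, edgeR adjusted p = 0.024). Its fasted medians were 65.3 CPM in males and 79.4 CPM in females, over control medians of 54.6 and 73.1 CPM. This difference no longer passed the test without CT24 (-0.20, edgeR adjusted p = 0.17), CT28 (-0.26, edgeR adjusted p = 0.0695) or CT44 (-0.25, edgeR adjusted p = 0.10), nor with males 1 (-0.27, edgeR adjusted p = 0.27), males 2 (-0.29, edgeR adjusted p = 0.21) or females 1 (-0.23, edgeR adjusted p = 0.13) left out. For Acat1 the difference was -0.22 (95% interval -0.47 to 0.03, edgeR adjusted p = 0.25) and for Bdh1 -0.15 (95% interval -0.54 to 0.23, edgeR adjusted p = 0.70), and neither passed the test.

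In control livers alone, CT8 to CT44, 39.2% of all genes differed between the sexes. Of the 5 genes, Slc16a1 was higher in females by 0.40 (SE 0.061, edgeR adjusted p = 5.23e-07) and Slc16a6 by 0.32 (SE 0.098, edgeR adjusted p = 0.0066). Bdh2 was lower in females by 0.43 log2 units (estimate -0.43, SE 0.11, edgeR adjusted p = 9.36e-04). Acat1 (0.15, edgeR adjusted p = 0.16) and Bdh1 (0.20, edgeR adjusted p = 0.22) did not pass the test. Without males 2, Bdh2 (-0.41, edgeR adjusted p = 0.0638) and Slc16a6 (0.30, edgeR adjusted p = 0.0971) lost their calls.

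**Figure D3:**
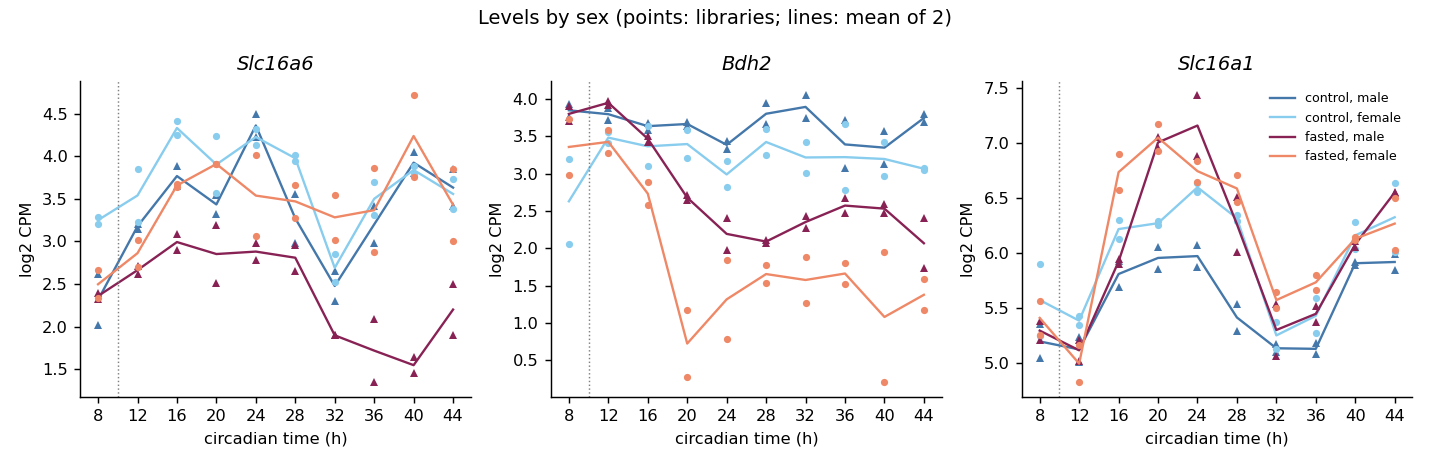
Levels of Slc16a6, Bdh2 and Slc16a1 as log2 CPM against circadian time in hours, by treatment and sex. Points are libraries (triangles male, circles female) and lines join the means of 2 libraries. For Slc16a6 the line of fasted males is the lowest of the 4 from CT12 on, for Bdh2 the line of fasted females is the lowest from CT16 on, and for Slc16a1 the control males are lowest at most times.

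The third question is how the daily rhythm of these genes fared. A cosine and a sine of 24 h were fitted with sex as a term, and a gene was called rhythmic when both terms together passed the edgeR test. In control livers 41.8% of all genes were rhythmic. Slc16a1 was, with a peak-to-trough difference of 1.05 log2 units and a peak at CT21.7 (edgeR adjusted p = 1.55e-10). Slc16a6 peaked close to it, at CT20.6, with a difference of 1.06 (edgeR adjusted p = 5.35e-05), so that both carrier genes peaked in the subjective night. The mean level of Slc16a6 was 6.01 ± 0.970 CPM at CT32 and 19.6 ± 2.13 CPM at CT24 (SD, n = 4 each). Bdh1 peaked in the subjective day, at CT7.35, with a difference of 0.81 (edgeR adjusted p = 4.06e-08). It held 119 ± 7.15 CPM at CT20 and 253 ± 42.3 CPM at CT32 (SD, n = 4 each). Acat1 (0.12, edgeR adjusted p = 0.67) and Bdh2 (0.11, edgeR adjusted p = 0.77) were not called rhythmic.

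In fasted livers the fit also held a linear change over time, and 47.1% of all genes were rhythmic. Slc16a1 had a peak-to-trough difference of 1.67 with a peak at CT22.5 (edgeR adjusted p = 3.44e-09). Its fasted mean ran from 33.4 ± 3.91 CPM at CT12 to 130.4 ± 10.3 CPM at CT20 and back to 43.7 ± 7.24 CPM at CT32 (SD, n = 4 each). Bdh1 kept a rhythm of 0.85 with a peak at CT8.07 (edgeR adjusted p = 0.0065), which did not pass the test without males 1 (0.85, edgeR adjusted p = 0.0593) or females 1 (0.75, edgeR adjusted p = 0.0709). Bdh2 was called with a difference of 1.11 and a peak at CT12.9 (edgeR adjusted p = 6.21e-04), beside a linear change of -1.0 log2 units per 24 h (SE 0.18, edgeR adjusted p = 3.69e-05). Since its level fell once, between CT12 and CT20, and stayed within 3.42 to 4.52 CPM in the mean from CT20 to CT44, no repeating cycle can be read from the cosine there. Slc16a6 (0.59, edgeR adjusted p = 0.099) and Acat1 (0.25, edgeR adjusted p = 0.31) were not called. Without fasted CT40 female 2, Slc16a6 was called with a difference of 0.61 (edgeR adjusted p = 0.026). The linear change of Acat1 was 0.37 log2 units per 24 h (SE 0.12, edgeR adjusted p = 0.015). Its fasted mean went from 327 CPM at CT12 to 537 CPM at CT20. From there to CT44 it stayed within 495 to 582 CPM, so a steady climb cannot be read from the linear change. The share of all genes called for a linear change was not computed.

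The rhythms of fasted and control livers were then compared in 1 fit over CT12 to CT44, in which 23.2% of all genes differed. Slc16a1 differed (0.67, edgeR adjusted p = 0.022), with a peak-to-trough difference of 1.69 in fasted and 1.09 in control livers in that fit. Its fasted mean lay far above the control mean at CT20, at 130.4 against 69.6 CPM. At CT40 and CT44 the means lay closer, at 68.7 against 65.8 CPM and 85.7 against 71.2 CPM. A larger cycle that repeats can therefore not be read from this fit. The fitted terms of Bdh2 differed too (1.09, edgeR adjusted p = 0.0038), with the limit given above on reading a cycle in its fasted livers. Without males 1 neither gene passed the test (0.56 for Slc16a1, edgeR adjusted p = 0.22, and 0.91 for Bdh2, edgeR adjusted p = 0.0903), and without males 2 Slc16a1 did not (0.49, edgeR adjusted p = 0.32). Slc16a6, called rhythmic in control but not in fasted livers, did not pass the test of the difference itself (0.38, edgeR adjusted p = 0.64), nor did Bdh1 (0.16, edgeR adjusted p = 0.90) or Acat1 (0.19, edgeR adjusted p = 0.73).

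The rest of the pathway gives the setting of these values. Of 7 other enzymes of ketone body making and use that are reported here, 4 were tested and all 4 fell. They are not the whole pathway, and they have cytosolic or other roles, so their count gives no direction for ketone body making in mitochondria. Aacs, which activates acetoacetate for lipid synthesis, had an effect of -3.08 (SE 0.15), Hmgcs1 and Acat2 of the cholesterol pathway had -2.29 (SE 0.094) and -1.68 (SE 0.075), and Oxct1, which reactivates ketone bodies outside the liver, had -0.54 (SE 0.095). Oxct1 held 5.46 ± 1.77 CPM in control livers (SD, n = 36), and Hmgcll1, Oxct2a and Oxct2b were too low to test.

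Of 15 other members of the monocarboxylate carrier families and their chaperones reported here, 10 were tested, 4 rose, 2 fell and 4 did not pass the test, with a median effect of -0.0258. They were listed by family, and what each of them carries was not examined, so their count gives no direction for ketone body export. The carriers that rose were Slc16a5, by 1.66 (SE 0.12), Slc16a7 by 0.80 (SE 0.044), Slc16a13 by 0.79 (SE 0.17) and Slc16a10 by 0.66 (SE 0.062). Slc16a13 was low, at 1.59 ± 0.642 CPM in control livers (SD, n = 36). Slc16a7 encodes MCT2, a high-affinity relative of MCT1, and at 83.1 ± 34.7 CPM in control and 139 ± 40.9 CPM in fasted livers (SD, n = 36 each) it was well expressed. The carriers that fell were Slc16a11 and Slc16a12, with effects of -0.45 and -0.31. Bsg, the chaperone that brings MCT1 to the membrane, had an effect of -0.03 (SE 0.035, edgeR adjusted p = 0.48). Of 7 regulators and receptors, 5 rose and 2 fell, with a median of 0.64. Fgf21, the hepatic fasting hormone, rose by 3.95 (SE 0.25) and Ppargc1a by 1.73 (SE 0.12). Creb3l3 rose by 0.78 (SE 0.035), Ppara, the fatty acid receptor that drives ketogenic genes, by 0.64 (SE 0.075) and Sirt3 by 0.33 (SE 0.029). Foxa2 (-0.52, SE 0.084) and Hcar2, the β-hydroxybutyrate receptor (-0.85, SE 0.30), fell. Hcar2 was close to the floor, at 0.616 ± 0.895 CPM in control and 0.355 ± 0.603 CPM in fasted livers (SD, n = 36 each), with counts down to 0. Beside these lists, the 5 genes had a median of 0.19.

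**Figure D4:**
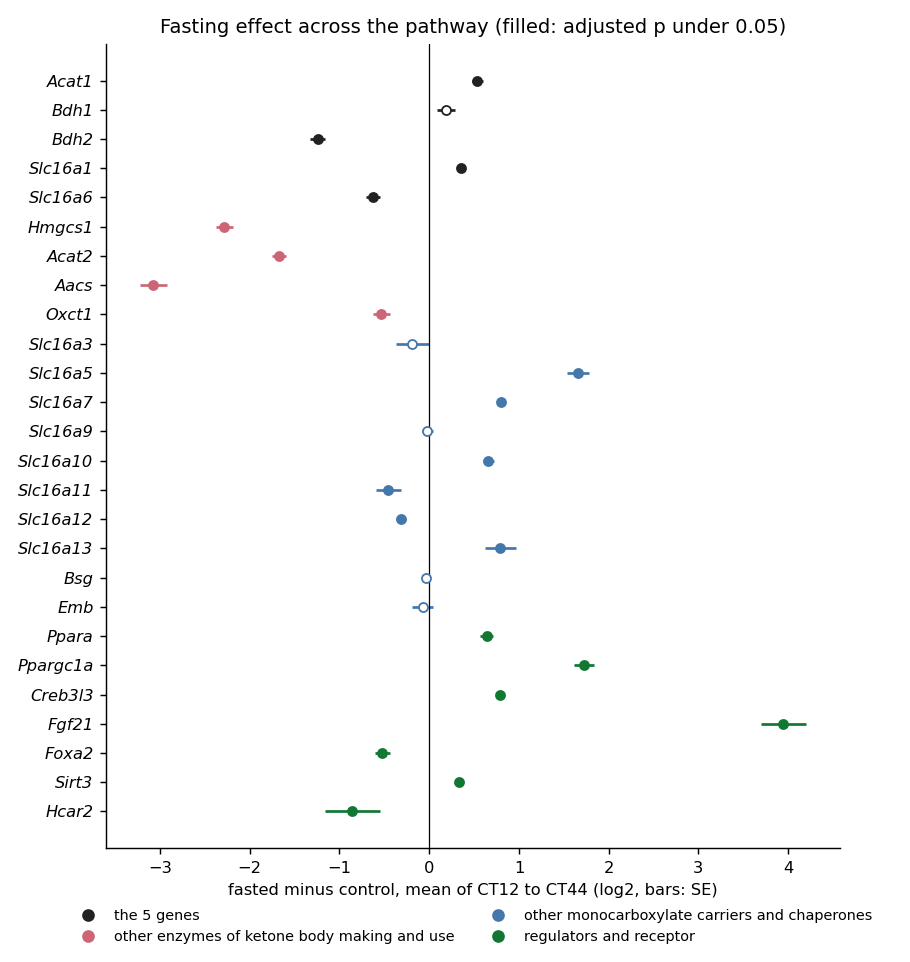
Fasting effect averaged over CT12 to CT44 (horizontal axis, log2 of fasted over control, bars SE) for the 5 genes and the tested genes reported from the 3 pathway lists, 1 gene a line. Filled points had an edgeR adjusted p under 0.05. Acat1 and Slc16a1 lie to the right of 0, Aacs, Hmgcs1, Acat2 and Bdh2 far to the left, and the carriers on both sides.

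Each gene also has neighbours in pattern, taken as the 3 genes with the highest Pearson r of mean log2 CPM over the 20 groups of treatment and time, among 11576 genes with a mean of at least 1 log2 CPM. Acat1 was nearest to Etfdh (r = 0.99), Eci1 (r = 0.98) and Cyp4a14 (r = 0.98), and the fasting effect of these was 0.89, 0.75 and 4.91. Bdh2 was nearest to Mgst3, Cyb5r3 and Haao, each at r = 0.98, with effects of -0.75, -1.19 and -0.80. Among the nearest to Slc16a1 were Ptpa (r = 0.96) and Pop1 (r = 0.95). Slc16a6 was nearest to Ddhd1, Nbeal2 and Ovca2, each at r = 0.93 to 0.94, and Bdh1 to Nsmce2, Aqp9 and Thoc3, at r = 0.90 to 0.91. The points of each correlation share their libraries and the fasting contrast, so these are descriptions.

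The deposited exon-bin counts show whether parts of a gene moved apart from the rest. They split each gene into numbered bins, without coordinates, and 14.3% of 13889 genes were called for a change in the share of their bins between fasted and control livers over CT12 to CT44 (edgeR's test of bin usage, Simes p per gene, Benjamini-Hochberg adjustment). Of the 5 genes, Acat1 was called (edgeR adjusted p = 5.43e-12). Of its 16 listed bins 15 were tested, and 2 were called. Bin 16 held 0.341 ± 0.0703% of the Acat1 counts in control and 0.234 ± 0.0679% in fasted livers (SD, n = 36 each), and its count fell from a mean of 107 to 92.3 while the whole gene rose. Relative to the gene it changed by -0.58 log2 units (edgeR adjusted p = 3.31e-12). Bin 15 held 3.31 ± 0.190% and 2.87 ± 0.233%, a relative change of -0.21 (edgeR adjusted p = 0.028). The other 13 tested bins were not called. Among them, bin 1 held 7.03 ± 0.285% in control and 7.58 ± 0.541% in fasted livers, and bin 14 held 4.40 ± 0.240% and 3.96 ± 0.218%. For Bdh1 (18 bins tested), Bdh2 (13), Slc16a1 (5) and Slc16a6 (11) no bin was called, and the adjusted p of the gene was 0.53 for Slc16a6 and 1 for the other 3. In 3 of the 80 exon columns, all of fasted CT40, the nearest library in the gene table was not the one of the same name, so fasted CT40 entered this fit as 1 group of 4 with no split by sex.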

How the data were processed

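RNA was taken from about 40 mg of the left liver lobe of each mouse, and poly(A)-selected, strand-specific libraries were sequenced as paired reads of 76 bases. Per the labels, Trimmomatic, HISAT2, DESeq2 and the build GRCm39 were used by the authors; versions, the counting program and the annotation are not given in the sources used here. The deposited tables hold raw read counts per gene and per exon bin, whole numbers with 1 column for each mouse, and these counts were used as deposited. A table of scaled counts was not used. The article that goes with the data is a review without a methods section.

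Groups were taken from the sample titles. Counts were tested with edgeR 4.0.16 in R 4.3.3 (filterByExpr over the groups of treatment, time and sex, TMM scaling, trended dispersion, quasi-likelihood F-test), with 1 mean for each treatment, time and sex over all 80 libraries, Benjamini-Hochberg adjustment over all genes tested and a threshold of 0.05. CPM values are TMM-scaled, and log2 CPM has a prior count of 2. Depth sets the precision of low genes, and intervals are of 95%. Rhythms used a cosine and sine of 24 h. The 2 libraries of a group are 2 mice, and no pair of libraries agreed within counting noise (lowest chi-square per degree of freedom 14.8). Alternatives were limma 3.58.1, DESeq2 1.42.0, other scalings, no filter, a replicate block, sexes alone and left-out libraries or times. The edgeR fits were tested on simulated counts. The 5 genes, the pathway and marker lists and the rule for neighbours in pattern (the 3 highest r) were chosen with earlier results of these data known. Named genes are the 5 genes, the listed genes that passed the test or define the pathway, and those neighbours, with Amz2, Arsg, Ddx3y, Xist and Rn18s-rs5 added for checks. A few genes of the pathway lists and neighbours are not reported here, and list counts are over the reported genes.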

Additional observations from a re-analysis of the deposited data

Results flagged for a closer look

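In 8 of 100 groups of 4 libraries of 1 gene, treatment and time, 1 library lay far from the other 3, with a gap to the nearest of them, as a share of the whole range in log2 CPM, above Dixon's 95% critical value. For 4 independent values of 1 normal population, about 5 in 100 would pass. These groups mix male and female libraries, and the 5 genes share the libraries. The 8 were therefore not tested against chance. Acat1 had 4 of them: fasted CT40 female 2 (gap 0.943 of the range, 7.94 against 9.22 to 9.30 log2 CPM), control CT16 female 1 (0.877, 9.08 against 8.24 to 8.34), control CT44 female 1 (0.871, 8.87 against 8.37 to 8.44) and fasted CT8 female 2 (0.832, 8.71 against 8.30 to 8.37). The others were Slc16a1 in fasted CT44 female 1 (0.901, 6.03 against 6.50 to 6.55 log2 CPM), Slc16a6 in control CT12 female 2 (0.889, 3.85 against 3.15 to 3.23), Bdh2 in control CT16 female 1 (0.838, 3.10 against 3.59 to 3.68) and Bdh1 in fasted CT16 male 1 (0.837, 6.87 against 7.30 to 7.39).

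The fasting effect differed between females and males for Slc16a6 by 0.90, for Bdh2 by -0.53 and for Slc16a1 by -0.30 log2 units. It differed between late and early times for Bdh2 by -0.69, where the early times hold CT12 and CT16, before most of the fall. The fitted cosine and sine differed between fasted and control livers for Bdh2, with a peak-to-trough difference of 1.09, and for Slc16a1, with 0.67. In fasted livers the level of Bdh2 fell once and no repeating cycle can be read from its cosine. For Slc16a1 the fasted mean lay far above the control mean at CT20 but close to it at CT40. These 6 values are listed because they passed the edgeR test of the difference itself, so passing adds no support. How they depend on left-out male numbers, times and libraries is given above and below.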

How the results depend on the processing

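Of 1197 values of the 5 genes under the alternatives, 1079 kept their direction and their side of the threshold, 56 lost their call, 39 gained one and 23 changed sign. The mean fasting effect kept both in 113 of 120 values. The causes of the changes below were not tested. Alternatives that leave out a time or 1 named library were chosen after seeing the data.

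Without the filter on low counts, the mean effect of Bdh1 (0.18), the late minus early effect of Acat1 (0.30), the control sex difference of Bdh1 (0.20) and the fasted rhythm of Slc16a6 (0.60) passed the test. Under limma-voom, effects near 0 that were not called changed sign, for Bdh1 at CT12 (-0.00426) and CT16 (0.000178) and for Slc16a6 at CT32 (-0.00383). With no sex in the model, 2742 genes were called for late minus early, Bdh2 lost its call (-0.75) and Slc16a6 changed sign (0.00784), and 9 calls at single times were lost, Slc16a6 at CT16, CT24, CT36, CT40 and CT44, Acat1 at CT24, CT28 and CT32 and Slc16a1 at CT28. In males alone the mean effect of Bdh1 (0.26) and the control (0.37) and fasted (0.36) rhythms of Acat1 and the fasted rhythm of Slc16a6 (0.85) were called, with 5104 genes rhythmic in control and 5893 in fasted livers. In females alone the mean effect of Slc16a6 (-0.18) and the fasted rhythms of Bdh1 (0.98) and Bdh2 (1.15) lost their calls, with 4692 and 4082 genes rhythmic.

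Without control CT8 female 2, the effect of Acat1 at CT8 was -0.0255. Without fasted CT40 female 2, the mean effect of Bdh1 (0.24), the late minus early effect of Acat1 (0.40) and the fasted rhythm of Slc16a6 (0.61) were called, and without fasted CT44 female 1 the mean effect of Bdh1 (0.22). The sex difference in effect lost its call for Bdh2 without CT20 (-0.38), CT36 (-0.50) or CT40 (-0.47), and for Slc16a1 without CT24 (-0.20), CT28 (-0.26) or CT44 (-0.25). The genes called for it were 1279 without CT40 and 1688 without CT44. With at least 10 counts in every exon column, 950 genes were called for bin usage.

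With the replicate number as a block, no call of the 5 genes changed, and 88 of 90 values kept their sign. The other 2 were near 0, Bdh1 at CT16 (0.00529) and Slc16a6 at CT32 (-0.00105). The numbers did not pair the samples: 1 of 20 correlations of replicate differences was above 0.1 (range -0.06 to 0.25).

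Leaving out 1 replicate number of 1 sex leaves a lone library in a group, assumed to vary like the others. At single times, calls of Acat1 (0.28 to 1.02 over CT20 to CT44), Slc16a6 at CT16, CT36 and CT44 (-1.09 to -0.50), Slc16a1 at CT28 (0.37 to 0.75) and Bdh2 at CT36 (-1.50 to -0.92) were lost under at least 1 of the 4. Calls were gained by Acat1 at CT8 and CT16, Bdh1 at CT28, CT36, CT40 and CT44, Slc16a1 at CT16 and CT44 and Slc16a6 at CT12. Those of Bdh1 at CT40 and CT44 had no common direction. At CT40 the effect was -0.75 without females 1 and 1.09 without females 2, and at CT44 it was 0.45 and -0.39. The ranges of values that changed sign at a single time, and of the other values and counts that changed, follow. The mean fasting effect of Bdh1 ran from 0.11 to 0.19. The fasting effect at CT8 ran from -0.13 to 0.41 for Acat1, -0.00188 to 0.22 for Bdh1 and -0.12 to 0.0533 for Slc16a1. The fasting effect at CT12 ran from -0.0813 to 0.21 for Acat1, -0.29 to 0.28 for Bdh1 and -0.0637 to 0.16 for Bdh2. For Bdh1 it ran from -0.13 to 0.13 at CT16, -0.17 to 0.40 at CT28, -0.75 to 1.09 at CT40 and -0.39 to 0.45 at CT44, and for Slc16a6 from -0.22 to 0.22 at CT32. The late minus early effect was called for 1449 to 4095 genes, and ran from 0.22 to 0.40 for Acat1, -0.0411 to 0.28 for Bdh1 and -0.90 to -0.53 for Bdh2. The sex difference in effect was called for 238 to 2473 genes, and ran from -0.32 to -0.10 for Acat1, -0.31 to -0.12 for Bdh1, -0.63 to -0.43 for Bdh2, -0.36 to -0.23 for Slc16a1 and 0.77 to 1.06 for Slc16a6. The sex difference in control livers ran from 0.0444 to 0.22 for Acat1, 0.10 to 0.28 for Bdh1, -0.51 to -0.41 for Bdh2 and 0.30 to 0.36 for Slc16a6. The rhythm in fasted livers ran from 0.75 to 0.93 for Bdh1 and 0.53 to 0.83 for Slc16a6. The difference between rhythms was called for 2635 to 3602 genes, and ran from 0.91 to 1.29 for Bdh2 and 0.49 to 0.92 for Slc16a1. Bin usage was called for 1103 to 1479 genes.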
